A study of Mus musculus with 2 samples.

Results

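Cycling intermediate progenitor cells (IPCs) were taken from single-cell RNA sequencing of the embryonic mouse dorsal telencephalon. The cells were chosen by their own UMI counts (unique molecular identifiers, each standing for 1 captured mRNA molecule). A cell counted as a cycling IPC when it had 1500 to 60000 UMIs with under 10% of them mitochondrial, at least 2 UMIs of Eomes, at least 2 UMIs of Mki67 and Top2a together, and 0 UMIs of Dlx1, Dlx2, Gad2 and Trp73. The rule found 148 cells among 16348 cells that passed the UMI and mitochondrial limits, out of 27182 called cells. They were 75 of 8139 passing cells in WT replicate 1, or 0.921% (Wilson 95% interval 0.736 to 1.15), and 73 of 8209 in WT replicate 6, or 0.889% (0.708 to 1.12). These intervals cover counting error only. Paired values are given for WT replicate 1 first and WT replicate 6 second, and a level is a gene's UMIs summed over the cells of a class, per 1000000 UMIs of that class (CPM).

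IPCs are the basal progenitors of the cortex. They arise from radial glial cells (RGCs), leave the ventricular surface, divide in the subventricular zone and give rise to glutamatergic neurons. Eomes (Tbr2) is the T-box transcription factor that marks them, Neurog2 is a proneural factor of the same lineage, and Mki67 and Top2a are made by dividing cells. Dlx1, Dlx2 and Gad2 mark GABAergic interneurons and their progenitors, and Trp73 marks Cajal-Retzius cells.

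The study was about the DNA methyltransferase DNMT1 in somatostatin interneurons. A part of it asked how interneurons signal to cortical progenitors, RGCs and IPCs among them. The series was set up around loss of the histone methyltransferase gene Dot1l under Emx1-Cre, a driver active in the dorsal telencephalon. Both libraries used here came from wild-type embryos at embryonic day 16.5, labelled as brain hemispheres, with no transgene or treatment named, and the knockout was not analysed here. All comparisons are therefore between cell classes of the same WT libraries, and the sources used here do not say whether a library came from 1 embryo.

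The libraries held 14136 and 13046 called cells with 74930397 and 68964234 UMIs. They shared 59 cell barcodes, of which 0 belonged to cycling IPCs. The summed cycling IPCs of the libraries differed by more than sampling noise, with a chi-square of 2.72 per degree of freedom over 11017 genes, and were treated as 2 samples. With 2 samples, p-values measure only the spread between these libraries.

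The members were set against 623 non-cycling IPCs (291 and 332 cells), which met the same rule with 0 UMIs of Mki67 and Top2a. They were also set against 316 cycling Slc1a3 progenitors (148 and 168 cells), which had at least 2 UMIs of Slc1a3, a glutamate transporter of radial glia, 0 UMIs of Eomes and of the same 4 excluded genes, and at least 2 UMIs of Mki67 and Top2a. Cycling IPCs made up 18.4% (15.0 to 22.5) and 16.3% (13.1 to 20.0) of the 407 and 449 Eomes cells without the 4 excluded genes.

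Cycling IPCs were deeper than the cells they were compared with. Their median was 13781 and 12460 UMIs a cell, against 9227 and 8599 in non-cycling IPCs and 12288 and 11541.5 in cycling Slc1a3 progenitors. A doublet score marked 11 of 75 (14.7%) and 18 of 73 (24.7%) of them, against 5.84% and 5.42% of non-cycling IPCs and 20.3% and 25% of cycling Slc1a3 progenitors. The part of depth and of doublets in the results was not tested. Some counts without marked cells or within 6000 to 20000 UMIs are given. For the lists they are given only in the comparison with non-cycling IPCs.

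The 4 excluded genes removed a large share of otherwise qualifying cells. Of the 140 and 116 cells with both Eomes and the cycling genes, 65 (46.4%) and 43 (37.1%) had a UMI of at least 1 of them, against 23.8% and 24.5% of the non-cycling Eomes cells. Gad2 was the most frequent, with a UMI in 38.6% and 33.6% of the cycling Eomes cells before removal and in 10.5% and 15.2% of microglia, a cell type that should lack it, at median depths of 15467 and 13788 against 8818.5 and 7115 UMIs. The removed cells had a median of 17115 and 16277 UMIs, and 36.9% and 51.2% of them were marked as doublets.

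The genes of the rule are given as a description. Eomes stood at 412 and 393 CPM in cycling IPCs, lower than the 647 and 615 CPM of non-cycling IPCs, and at 55.0 and 54.5 CPM in all other passing cells. Mki67 stood at 459 and 611 CPM and Top2a at 890.4 and 742 CPM, and in cycling Slc1a3 progenitors they stood at 532 and 449 and 943 and 718 CPM. Mki67 was seen in 68 of 75 and 69 of 73 members and Top2a in 67 and 62, so most members carried both.

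The label was checked with Neurog2, which the rule did not use. Neurog2 stood at 393 and 345 CPM in cycling IPCs and 432 and 428 CPM in non-cycling IPCs, far above the 47.4 and 50.3 CPM of all passing cells other than the members and the 14.2 and 26.0 CPM of cycling Slc1a3 progenitors. When each cell was thinned to 3000 UMIs, which left out 2 cycling IPCs, 5 non-cycling IPCs and 46 microglia, 52.1% and 52.1% of cycling IPCs kept a Neurog2 UMI, as did 50.3% and 48.2% of non-cycling IPCs and 1.49% and 1.39% of microglia. Without thinning the shares were 86.7% and 79.5%, 67.7% and 67.5%, and 6.98% and 3.03%. Thinned to 1500 UMIs, with 0 cells left out, they were 50.7% and 35.6% in cycling and 36.4% and 38.3% in non-cycling IPCs. At 3000 UMIs the IPC classes lay close together, and at 1500 UMIs WT replicate 1 was higher in the cycling cells.

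Markers of other cells differed in level, and haemoglobin was the most abundant of them. Olig1, of oligodendrocyte precursors, was at 0 in both libraries, while the summed list of those cells stood at 0.0651 and 0.0403 UMIs per 10000. The interneuron gene Gad1, whose cells the rule leaves out in part through Gad2, Dlx1 and Dlx2, stood at 3.72 and 1.01 CPM against 70.5 and 71.6 CPM in the other passing cells. Summed over its list, microglia genes stood at 2.45 and 0.0807 UMIs per 10000, endothelial genes at 0.214 and 0.131, and Cajal-Retzius genes at 0.195 and 0.171. A single member of WT replicate 1 held at least 5 UMIs of the microglial complement genes, and C1qa stood at 45.5 and 1.01 CPM. Haemoglobin and other erythroid genes stood at 9.53 and 12.4 UMIs per 10000, below the 16.0 and 15.9 of non-cycling IPCs. The globin gene Hbb-bs alone stood at 486 and 683 CPM, above Eomes in both libraries, against 814 and 846 CPM in non-cycling IPCs and 6808 and 10340.2 CPM in all other passing cells.

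**Figure D1:**
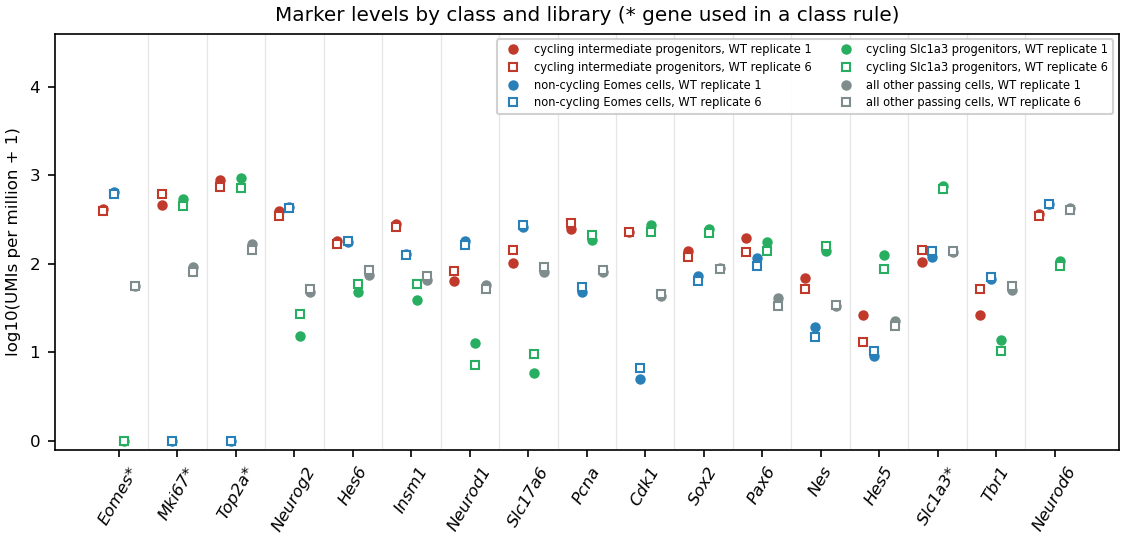
Levels of 17 genes in summed cells, on a log10 axis of CPM plus 1. Colours are cell classes, filled circles are WT replicate 1 and open squares WT replicate 6, and asterisks mark genes used to choose a class. Neurog2 and Hes6 lay close together in cycling and non-cycling IPCs, while Insm1 lay higher and Neurod1 and Slc17a6 lay lower in the cycling cells.

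The cell-cycle programme was described with 43 S-phase genes and 57 G2/M genes, lists without Mki67 and Top2a. No test was made against non-cycling IPCs, since the rule split the cells by cycling genes. All 43 S-phase and all 57 G2/M genes lay higher in cycling than in non-cycling IPCs in both libraries. A cycling IPC had a median of 34.7 and 30.5 UMIs per 10000 on the S list against 7.68 and 7.31 in a non-cycling IPC, and 90.0 and 135.6 on the G2/M list against 18.0 and 18.6.

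Among the S-phase genes, Pcna, the sliding clamp of DNA polymerase, stood at 244 and 291 CPM in cycling IPCs against 46.9 and 53.0 CPM in non-cycling IPCs, the order in which values are given below. Pola1, the catalytic subunit of DNA polymerase alpha, stood at 206 and 203 against 41.9 and 41.1 CPM and Rrm2, a subunit of ribonucleotide reductase, at 175 and 263 against 10.3 and 11.8 CPM. For each of these genes the distance between the classes was larger than that between the libraries.

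Among the G2/M genes, Cdk1, the mitotic kinase, stood at 225 and 226 against 3.99 and 5.59 CPM, and Ccnb1, a cyclin partner of it, at 147 and 181 against 1.33 and 1.32 CPM. Hmgb2, a chromatin protein abundant in dividing cells, stood at 2716 and 2822 against 187 and 199 CPM and Cenpf, a kinetochore protein, at 586 and 683 against 5.32 and 7.24 CPM. These genes were near 0 in non-cycling IPCs apart from Hmgb2, which was present there at a lower level.

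Regulators of G1 and of cell-cycle exit were mixed. The D-type cyclin genes stood at 76.2 and 81.7 against 25.6 and 25 CPM for Ccnd1 and 802 and 625 against 339 and 358 CPM for Ccnd2, higher in cycling IPCs in both libraries. The CDK inhibitor gene Cdkn1c stood lower, at 34.4 and 42.4 against 117 and 76.0 CPM. The inhibitor gene Cdkn1b stood at 204 and 229.9 against 232 and 253 CPM and Btg2, an antiproliferative gene known from neurogenic divisions, at 125 and 132 against 124 and 128 CPM. The last 2 genes lay at like levels in both classes.

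Single members differed in the balance of the lists. The G2/M list had at least 2 times the UMIs of the S list in 42 and 47 members, the reverse held in 4 and 4, and 29 and 22 fell between. The lists differ in length and level, and a non-cycling IPC had a G2/M median above 2 times its S median as well, so these are counts by list UMIs and not shares of cells in a phase. On the G2/M side the G2/M list went down to 17.3 and 21.4 UMIs per 10000, near the non-cycling median. Of the non-cycling IPCs, 10 of 291 (3.44%) and 12 of 332 (3.61%) reached the members' median on the S list, while 0 of 291 and 0 of 332 reached it on the G2/M list. The classes still overlapped on the G2/M list, where members went down to 11.7 and 13.0 and non-cycling IPCs up to 46.0 and 85.8 UMIs per 10000.

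**Figure D2:**
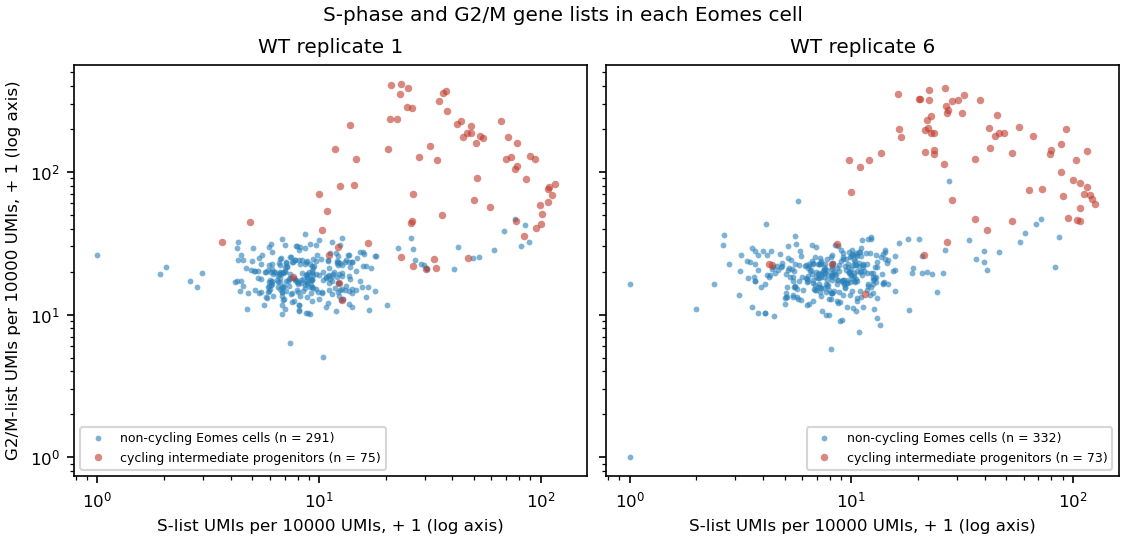
S-phase list against G2/M list, in UMIs per 10000 plus 1 for each Eomes cell, on log axes with 1 panel a library. Red points are cycling IPCs (75 and 73) and blue points non-cycling IPCs (291 and 332). A small number of blue points reach the S-list range of the red points while staying low on the G2/M list.

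Cells at the edge of the rule were described without a test. The 41 and 44 cells with exactly 1 UMI of Mki67 and Top2a together, which belonged to neither IPC class, had 15.9 and 14.5 S-list UMIs and 23.2 and 28.6 G2/M-list UMIs per 10000. The 26 and 19 members with 2 or 3 such UMIs had 35.1 and 39.0 on the S list and 42.3 and 63.9 on the G2/M list, and the 49 and 54 members with at least 4 had 48.8 and 50.3, and 169 and 168. Members just inside the limit thus had most of the S-list level and a smaller part of the G2/M-list level. On the Eomes side, Neurog2 stood at 147 and 215 CPM in the 26 and 18 cycling cells with 1 Eomes UMI, at 201 and 272 CPM in the 15 and 12 members with 2, and at 426 and 365 CPM in the 60 and 61 members with 3 or more.

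Promoter sequences of the list genes were read as a description. The counts follow from the lists and do not use levels in these cells. Windows of 250 bases before to 50 after the gene start, from RefSeq on GRCm38.p6, were matched by symbol for 51 of 59 G2/M genes (56 promoters, Mki67 and Top2a included) and 31 of 43 S-phase genes (34 promoters). The letters TTTGAA, known as the cell-cycle genes homology region, stood on either strand in 36 of 56 G2/M promoters (64.3%), in 17.6% of S-phase promoters and in 17.9% of all 32851 promoters. The letters CCAAT stood in 42 of 56 G2/M promoters, 67.6% of S-phase promoters and 37.4% of all, and both sets of letters together in 51.8%, 11.8% and 6.95%. The E2F-type letters TTCCCGC stood in 14 of 34 S-phase promoters (41.2%), 1.79% of G2/M promoters and 4.6% of all, and TTGGCGC in 17.6%, 14.3% and 2.45%. CCAAT read on the other strand ends in the letters that open TTGGCGC, so these motifs can share bases. Promoters of the IPC list (39, from 22 of 30 genes) held the E-box letters CATATG in 17.9% and CAGATG in 25.6%, against 3.91% and 17.2% of all, and the T-box half-site letters GGTGTGA in 2.56% against 3.98%. These are counts of letters and not of bound sites.

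The promoters of Hmgb2 and Top2a are shown as those of the G2/M genes with the highest levels in the members among promoters with TTTGAA and at least 2 CCAAT, both in capitals wherever they stand on either strand. The promoter of Pola1 is shown as that of the S-phase gene with the highest level among promoters with both E2F-type letters, also in capitals. Promoters of a single chromosome were left out of these choices. Top2a is a gene of the rule, so its level in the members follows in part from the rule. The TTTGAA nearest the gene start began 30 bases before it in Hmgb2 and 23 bases before it in Top2a.
Hmgb2, chr8:57511593-57511892, plus strand: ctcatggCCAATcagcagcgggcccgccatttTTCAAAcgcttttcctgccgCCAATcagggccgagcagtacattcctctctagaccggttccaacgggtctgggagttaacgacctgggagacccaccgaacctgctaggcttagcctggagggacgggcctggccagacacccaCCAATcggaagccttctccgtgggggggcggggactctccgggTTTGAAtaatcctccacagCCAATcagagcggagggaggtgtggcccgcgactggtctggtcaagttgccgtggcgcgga
Top2a, chr11:99024140-99024439, minus strand: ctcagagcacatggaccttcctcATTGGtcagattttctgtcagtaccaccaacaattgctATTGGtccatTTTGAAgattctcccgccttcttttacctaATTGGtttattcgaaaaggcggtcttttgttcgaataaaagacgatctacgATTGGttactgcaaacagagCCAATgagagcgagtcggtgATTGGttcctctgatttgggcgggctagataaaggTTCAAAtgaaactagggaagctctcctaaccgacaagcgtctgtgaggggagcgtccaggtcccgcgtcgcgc
Pola1, chrX:93632106-93632405, minus strand: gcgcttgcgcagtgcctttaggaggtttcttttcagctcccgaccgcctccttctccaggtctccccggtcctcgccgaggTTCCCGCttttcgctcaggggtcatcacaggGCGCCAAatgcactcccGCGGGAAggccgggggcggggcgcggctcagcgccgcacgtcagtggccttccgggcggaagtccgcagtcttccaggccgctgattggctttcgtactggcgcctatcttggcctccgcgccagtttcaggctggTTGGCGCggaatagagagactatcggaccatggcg

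The comparison of cycling with non-cycling IPCs then asked what else differed between these classes of Eomes cells. Among the cycling cells 14 of 29 radial glia genes were higher and 0 lower, 8 of 30 postmitotic neuron genes were lower and 1 higher, and 10 of 24 guidance and signalling receptors were lower and 0 higher, so that most genes of each list did not pass. By edgeR's quasi-likelihood test on UMIs summed per library and class, 1643 of 11168 genes passed an adjusted p of 0.05 (14.7%), 1021 of them higher (9.14%) and 622 lower (5.57%) in cycling IPCs. Genes of the rule and of the 3 cell-cycle lists got no test. Some genes stand in more than 1 list, so the list counts are not independent. Unc5d, Plxna4, Sstr2, Insm1, Dcx, Notch1, Notch2, Pax6 and Gli3 are among them. The median log2 difference over all genes tested was -0.02, and log2 differences are given with their standard error.

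Of 29 radial glia genes tested, 14 were higher and 0 lower, with a median log2 difference of 0.60. Nes, the intermediate filament nestin, stood at 68.8 and 50.4 against 18.3 and 13.8 CPM in non-cycling IPCs (1.91 ± 0.24, adjusted p = 0.000833). Fabp7, a fatty acid binding protein of radial glia, stood at 1027 and 977 against 449 and 491 CPM (1.11 ± 0.12, adjusted p = 0.000293), and Sox2, a progenitor transcription factor, at 138 and 119 against 72.5 and 63.1 CPM (0.94 ± 0.15, adjusted p = 0.00299). For these 3 genes both cycling values lay above both non-cycling values.

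Tnc, Phgdh, Notch2, Ddah1, Ptprz1, Sox9, Zfp36l1, Notch1, Mfge8, Gli3 and Pax6 were also higher. Pax6, a transcription factor of cortical radial glia, stood at 194 and 135 against 116 and 92.4 CPM (0.68 ± 0.19, adjusted p = 0.0452), and its call was lost under 5 alternatives. The calls of Mfge8, Sox9, Zfp36l1, Gli3 and Tnc were lost under 9, 8, 6, 5 and 4 alternatives. Slc1a3 did not follow, at 104 and 142 against 118 and 139 CPM (-0.05 ± 0.16, adjusted p = 0.868), nor did Vim, the filament vimentin, at 409 and 249 against 531 and 436 CPM (-0.54 ± 0.22, adjusted p = 0.142). With the library as a replicate block Vim passed as lower (edgeR adjusted p = 0.0101), and so it did under 2 other alternatives. The count of 14 fell to 7 of 28, with 1 gene lower, within 6000 to 20000 UMIs and to 7 of 29 with DESeq2, and was 12 of 28 without marked doublets.

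In single cells the radial glia list had a median of 33.0 and 29.5 UMIs per 10000 in cycling IPCs, ranging from 6.83 to 370 and from 6.92 to 191. The non-cycling medians were 24.1 and 23.7, and 36.8% and 37.3% of non-cycling IPCs reached the members' median. The medians of cycling Slc1a3 progenitors were 187 and 186, and 95.3% and 97.0% of them reached it. On this list the members lay much nearer to non-cycling IPCs, with a wide overlap.

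**Figure D3:**
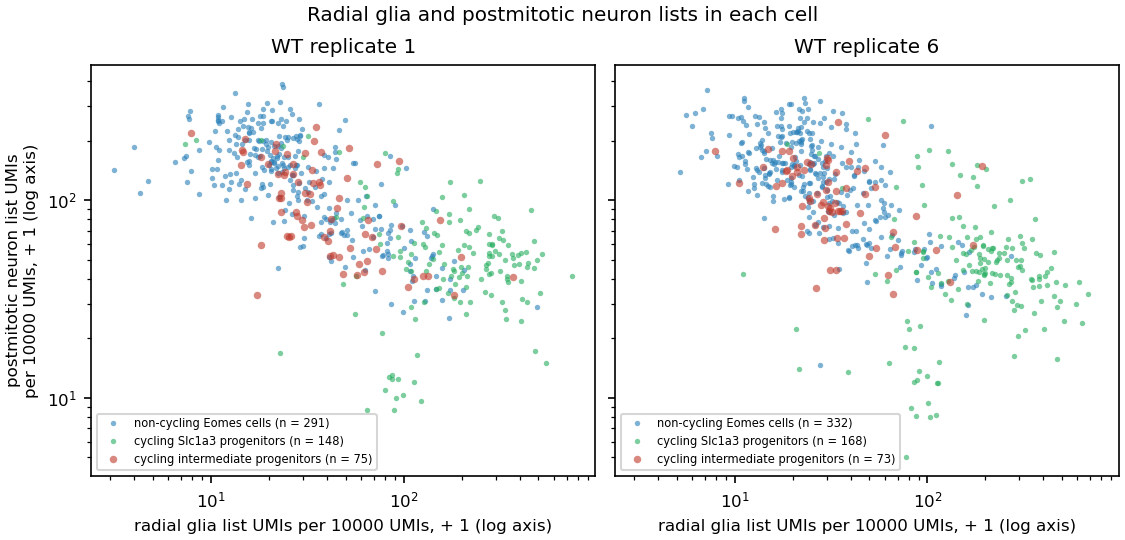
Radial glia list against postmitotic neuron list, in UMIs per 10000 plus 1 for each cell, on log axes with 1 panel a library. Blue points are non-cycling IPCs, green points cycling Slc1a3 progenitors and red points cycling IPCs. The red points overlap the blue ones and reach towards the green ones, which lie higher on the radial glia list.

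Of 28 genes of the IPC list tested, 1 was higher and 7 were lower, with a median of -0.20. The gene that rose was Insm1, a zinc-finger factor known for promoting basal progenitors, at 277 and 262 against 128 and 126 CPM (1.10 ± 0.12, adjusted p = 0.000246). Thinned to 3000 UMIs, 54.8% and 57.5% of cycling IPCs kept an Insm1 UMI, against 26.2% and 28.4% of non-cycling IPCs and 1.49% and 6.94% of microglia. Without thinning these were 86.7% and 91.8%, 59.5% and 57.8%, and 5.81% and 13.1%. The share of cycling IPCs with Insm1 thus stayed the higher one at equal depth.

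The IPC-list genes that fell included markers of the step to neurons. Neurod1, a bHLH factor of late IPCs and young neurons, stood at 62.3 and 82.7 against 181 and 163 CPM (-1.24 ± 0.15, adjusted p = 0.000733). Slc17a6, the vesicular glutamate transporter 2, stood at 100.4 and 142 against 258 and 273 CPM (-1.12 ± 0.16, adjusted p = 0.00144). Tmem158, Kif26b, Sstr2, Afap1 and Mfap4 were the others. Neurog2 did not pass (-0.21 ± 0.13, adjusted p = 0.323), nor did Hes6, a Hes-family factor of neurogenic cells, at 178 and 167 against 176 and 179.6 CPM (-0.03 ± 0.12, adjusted p = 0.913).

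Of 30 postmitotic neuron genes, 8 were lower and 1 higher, with a median of -0.28. Unc5d, of the UNC5 netrin receptor family, stood at 1396 and 1335 against 3178 and 3474 CPM (-1.27 ± 0.11, adjusted p = 7.58e-05). Tubb3, a neuronal tubulin, stood at 267 and 343 against 497 and 531 CPM (-0.74 ± 0.14, adjusted p = 0.00775), and Dcx, a microtubule protein of migrating neurons, at 298 and 376 against 537 and 579 CPM (-0.72 ± 0.14, adjusted p = 0.00845). For these 3 genes both cycling values lay below both non-cycling values.

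Stmn4, Sema3c, Plxna4, Neurod2 and Tbr1 were lower as well, and Cux1 was higher (0.40 ± 0.12, adjusted p = 0.0483). Tbr1, a deep-layer transcription factor, stood at 25.1 and 50.4 against 66.1 and 70.7 CPM (-0.86 ± 0.25, adjusted p = 0.0484), and the calls of Tbr1, Stmn4 and Cux1 were lost under 5, 5 and 7 alternatives. Neurod6, a factor of glutamatergic neurons, stood at 368 and 349 against 472 and 468 CPM (-0.38 ± 0.12, adjusted p = 0.0636), and passed as lower with the replicate block (edgeR adjusted p = 0.029). With that block 12 of the 30 genes were lower and 3 higher, and with DESeq2 4 and 0. Without marked doublets 18 of the 30 genes were lower and 1 higher, and within 6000 to 20000 UMIs 13 and 1. Over all genes tested, 846 were lower and 1125 higher without marked doublets, and 738 and 1065 within 6000 to 20000 UMIs. In the main analysis these counts were 622 and 1021.

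In single cells the neuron list had a median of 86.2 and 98.7 UMIs per 10000 in cycling IPCs and 139 and 137 in non-cycling IPCs, of which 70.1% and 70.5% reached the members' median. In cycling Slc1a3 progenitors it was 49.3 and 43.1, and 14.9% and 11.9% of them reached the members' median. In all other passing cells, non-cycling IPCs among them, it was 130 and 142, so non-cycling IPCs lay near that level. The part of this in the differences between the IPC classes was not tested.

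**Figure D4:**
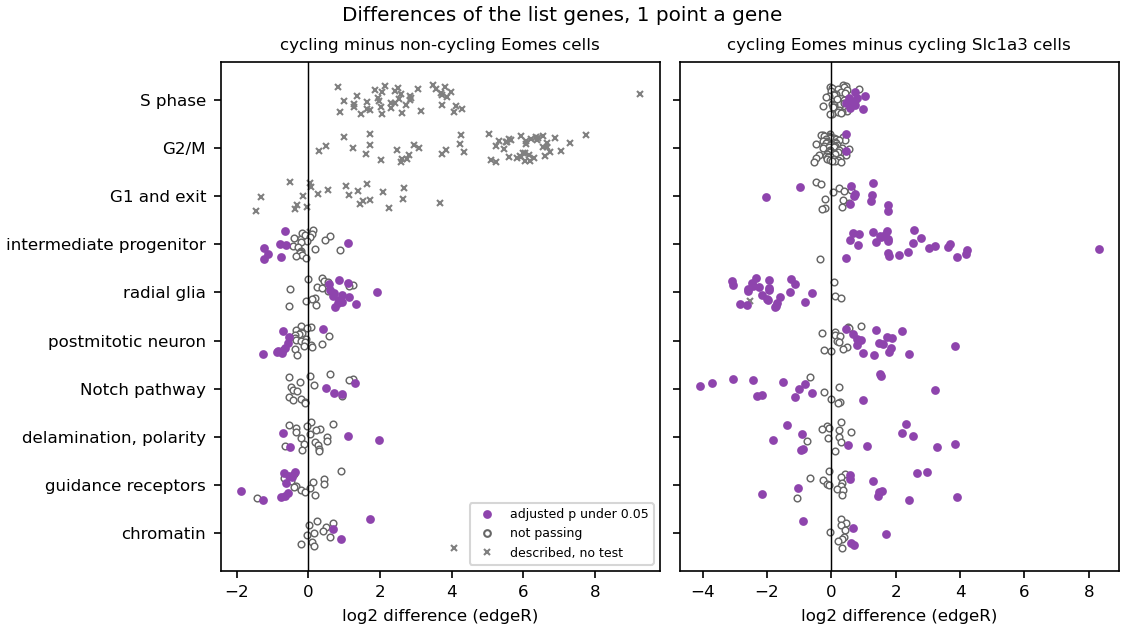
Log2 differences of the genes of each list by edgeR, 1 point a gene. The left panel sets cycling against non-cycling IPCs and the right panel cycling IPCs against cycling Slc1a3 progenitors. Filled purple points passed an adjusted p of 0.05, open points did not, and crosses were described with no test. Of the radial glia genes, 14 of 29 passed to the right of 0 in the left panel and 25 of 28 passed to the left of 0 in the right panel.

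Receptors that could receive guidance or synaptic signals were taken as a list, since the study asked about signals to progenitors. Of 24 tested, 10 were lower in cycling IPCs and 0 higher, with a median of -0.42. Robo2, a Slit receptor, stood at 1262 and 1279.8 against 1939 and 2074 CPM (-0.65 ± 0.11, adjusted p = 0.00418), and Epha3, an ephrin receptor, at 928 and 868 against 1341 and 1566 CPM (-0.68 ± 0.12, adjusted p = 0.00688). Sstr2, a somatostatin receptor, stood at 66.9 and 75.6 against 116 and 127 CPM (-0.76 ± 0.14, adjusted p = 0.00679). In each of them both cycling values lay below both non-cycling values.

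Nrp2, a semaphorin receptor, stood at 12.1 and 40.3 against 109 and 83.9 CPM (-1.89 ± 0.35, adjusted p = 0.00735), with a wide gap between the cycling values. Unc5d, Gria2, Plxna4, Epha5, Epha7 and Dcc were lower too, and the calls of Epha7 and Dcc were lost under 9 and 5 alternatives, DESeq2 and 6000 to 20000 UMIs among them. Epha4 did not pass, at 441 and 334 against 516 and 523 CPM (-0.41 ± 0.15, adjusted p = 0.114), nor did the synaptic adhesion gene Nlgn1, at 751 and 863 against 1055 and 1013 CPM (-0.35 ± 0.12, adjusted p = 0.0821), and Nlgn1 passed as lower without marked doublets and under 4 other alternatives. With the library as a replicate block both passed as lower (edgeR adjusted p = 0.0393 for Epha4 and 0.0376 for Nlgn1), and Epha4 passed within 6000 to 20000 UMIs too. Of the 24 receptors 16 were lower without marked doublets, 13 with the replicate block and 8 with DESeq2. Over all genes tested, 846 were lower and 1125 higher without marked doublets, 787 and 1155 with the block, and 203 and 573 with DESeq2. In the main analysis these counts were 622 and 1021.

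Notch signalling keeps a progenitor undifferentiated when a neighbour presents a ligand. Of 20 Notch genes tested, 4 were higher in cycling IPCs and 0 lower, with a median of -0.02. They were the receptor genes Notch1 (0.72 ± 0.15, adjusted p = 0.0113) and Notch2 (0.95 ± 0.22, adjusted p = 0.0196), the ligand gene Jag1 (1.31 ± 0.28, adjusted p = 0.0141) and the co-activator gene Maml2 (0.49 ± 0.12, adjusted p = 0.0248). The target Hes5 stood at 25.1 and 12.1 against 7.98 and 9.21 CPM and did not pass (1.14 ± 0.38, adjusted p = 0.0821). Within 6000 to 20000 UMIs 1 of 16 passed, and all 4 calls were lost with DESeq2.

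Of 23 delamination and polarity genes, 2 were higher and 2 lower, against shares of 9.14% higher and 5.57% lower over all genes tested. Plekha7, a protein of adherens junctions, was higher at 23.2 and 17.1 against 6.65 and 3.62 CPM (1.99 ± 0.40, adjusted p = 0.0107), as was Insm1, while Dcx and Scrt2 were lower, and the call of Scrt2 was lost under 7 alternatives. Cdh2, which encodes N-cadherin, stood at 659.9 and 664 against 734 and 632 CPM (-0.03 ± 0.12, adjusted p = 0.898).

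Of 14 chromatin genes tested, 3 were higher and 0 lower. Dnmt1, the maintenance DNA methyltransferase, stood at 121 and 142 against 37.9 and 42.8 CPM (1.71 ± 0.15, adjusted p = 7.27e-05). The Polycomb genes Suz12 (0.93 ± 0.12, adjusted p = 0.000919) and Ezh2 (0.69 ± 0.12, adjusted p = 0.00414) were the others. The rule split these classes by cycling genes, and the part of that split in these 3 rises was not tested. Dot1l, the gene around which the series was set up, stood at 46.5 and 37.3 against 48.2 and 36.2 CPM (0.01 ± 0.22, adjusted p = 0.985).

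Of 11 genes of dorsal identity, Pax6 and Gli3 were higher and Wnt7b, Nr2f2 and Emx1 lower. Emx1, whose locus drives the Cre of the series, stood at 73.4 and 70.6 against 111 and 124 CPM (-0.69 ± 0.14, adjusted p = 0.0109), and the Wnt ligand gene Wnt7b at 16.7 and 10.1 against 51.2 and 52.6 CPM (-1.92 ± 0.25, adjusted p = 0.000989). Nr2f2 was uneven between the cycling sums, at 10.2 and 66.6 against 103 and 128 CPM.

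Beyond the lists, the 10 genes with the largest rises included Kif4, Spc25, Esco2, Depdc1a, Cep55, Kif14, Pbk, Aspm and Neil3. Most of those named are known from chromosome segregation, cytokinesis or DNA repair, and they rose with the cycling genes that chose the cells. Pbk, a mitotic kinase, stood at 216 and 217 against 1.66 and 1.97 CPM and Aspm, a spindle-pole protein, at 146 and 195 against 1.66 and 1.32 CPM. The 10 with the largest falls were Shisa9, Fhit, Wnt7b, Nrp2, Socs2, Trim9, Cxcl12, Pcp4, Kcnn3 and Prkg1. Shisa9, a protein that binds AMPA receptors, stood at 38.1 and 21.2 against 178 and 167 CPM (-2.51 ± 0.21, adjusted p = 6.8e-05), and Trim9, a neuronal ubiquitin ligase, at 39.0 and 46.4 against 159.5 and 156 CPM (-1.87 ± 0.15, adjusted p = 3.66e-05). Prkg1 turned from -1.72 to 0.18 when cells with the 4 excluded genes were kept in both classes.

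Cycling IPCs were next set against cycling Slc1a3 progenitors, which passed the same Mki67 and Top2a limit. In cycling IPCs 28 of 29 IPC genes and 17 of 30 postmitotic neuron genes were higher, and 25 of 28 radial glia genes were lower, while 2 of 57 G2/M genes and 9 of 43 S-phase genes passed. Of 11196 genes, 2541 passed (22.7%), 1012 higher (9.04%) and 1529 lower (13.7%) in cycling IPCs. Slc1a3 and the genes of the rule got no test. The Eomes limit of both classes bears on the IPC list. The Slc1a3 limit, set on the comparison class alone, bears on the radial glia list, which holds Slc1a3. The part of these limits in the differences of the IPC, radial glia and neuron lists was not tested.

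The Slc1a3 class was not pure. At least 2 UMIs over 10 genes of fibroblasts, vessels and oligodendrocyte precursors were found in 36 of 148 (24.3%) and 44 of 168 (26.2%) of its cells, against 2 of 75 and 1 of 73 cycling IPCs. The 10 genes with the largest falls in cycling IPCs were Vtn, Slc6a13, Lum, Tbx18, Slc22a6, Dcn, Col3a1, Col1a2, Col1a1 and Apod. Dcn, a proteoglycan of connective tissue, stood at 0.929 and 0 against 219 and 233 CPM and Vtn at 0 and 0 against 168 and 117 CPM. Without such cells in any class, an alternative chosen after seeing the data, 1620 genes passed, 716 higher and 904 lower, of which 1452 were among the 2541. Each list below is also counted without them.

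Of 29 IPC genes tested, 28 were higher and 0 lower, and 26 without cells of other lineages. Neurog2 stood at 393 and 345 CPM in cycling IPCs against 14.2 and 26.0 CPM in cycling Slc1a3 progenitors (4.23 ± 0.23, adjusted p = 1.17e-06), Slc17a6 at 100.4 and 142 against 4.90 and 8.51 CPM (4.19 ± 0.28, adjusted p = 5.01e-06) and Insm1 at 277 and 262 against 37.7 and 57.7 CPM (2.53 ± 0.19, adjusted p = 1.01e-05). Hes6 stood at 178 and 167 against 47.5 and 58.1 CPM (1.75 ± 0.16, adjusted p = 3.5e-05). For these 4 genes both IPC values lay above both Slc1a3 values.

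Of 28 radial glia genes, 25 were lower and 0 higher, with the same counts without cells of other lineages. Fabp7 stood at 1027 and 977 against 5430.0 and 5971 CPM (-2.47 ± 0.12, adjusted p = 7.68e-07), the Notch target gene Hes5 at 25.1 and 12.1 against 124 and 87.0 CPM (-2.44 ± 0.31, adjusted p = 0.000246) and Sox2 at 138 and 119 against 243 and 219 CPM (-0.80 ± 0.15, adjusted p = 0.00311). The 3 genes that did not pass were Pax6, at 194 and 135 against 174 and 138 CPM (0.12 ± 0.20, adjusted p = 0.72), Emx2 (0.09 ± 0.19, adjusted p = 0.8) and Prom1 (0.28 ± 0.19, adjusted p = 0.326).

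Of 30 postmitotic neuron genes, 17 were higher and 0 lower, and 14 without cells of other lineages. Dcx stood at 298 and 376 against 74.4 and 77.5 CPM (2.18 ± 0.16, adjusted p = 7.53e-06), Rnd2, a small GTPase of migrating neurons, at 128 and 162 against 9.79 and 10.9 CPM (3.84 ± 0.22, adjusted p = 1.51e-06) and Neurod6 at 368 and 349 against 107 and 92.2 CPM (1.88 ± 0.15, adjusted p = 1.39e-05).

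The cell-cycle lists could be tested here, since both classes passed the same limit. Of 57 G2/M genes, Jpt1 (0.46 ± 0.15, adjusted p = 0.048) and Anp32e (0.44 ± 0.14, adjusted p = 0.0492) were higher and 0 lower, with a median of -0.03, and both calls were lost without cells of other lineages and with DESeq2. Of 43 S-phase genes, 9 were higher and 0 lower, with a median of 0.34. Fen1, a flap endonuclease, stood at 62.3 and 77.7 against 30.4 and 38.8 CPM (1.05 ± 0.21, adjusted p = 0.00402), Rrm2 at 175 and 263 against 94.0 and 130.5 CPM (0.995 ± 0.21, adjusted p = 0.00561) and Pcna at 244 and 291 against 186 and 213 CPM (0.46 ± 0.15, adjusted p = 0.0483). Mcm2, Clspn, Prim1, Nasp, Rrm1 and Hells were the others. Without cells of other lineages 12 of the 43 were higher, and with DESeq2 4 were, and the call of Pcna was lost under 8 alternatives.

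Of 23 genes of G1 and cell-cycle exit, 9 were higher and 2 lower, and 7 and 1 without cells of other lineages. E2f1, a transcription factor of S-phase entry, stood at 71.6 and 70.6 against 31.3 and 30.3 CPM (1.24 ± 0.19, adjusted p = 0.000779) and Cdk6, a G1 kinase gene, at 476 and 418 against 196 and 189 CPM (1.25 ± 0.15, adjusted p = 0.000176). Btg2 stood at 125 and 132 against 54.8 and 52.0 CPM (1.31 ± 0.16, adjusted p = 0.000178). Trp53inp1, Gadd45g, Cdk4, Cdkn1b, Ccnd2 and E2f3 were higher as well. Cdkn1c was lower at 34.4 and 42.4 against 147 and 173 CPM (-2.02 ± 0.18, adjusted p = 3.06e-05), and turned to 1.38 (adjusted p = 0.00991) without cells of other lineages, and Ccnd3 turned from -0.96 to 0.015.

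The Notch list held genes that passed in either direction. Of 21 genes, 11 were lower and 4 higher, and 9 and 4 of 20 without cells of other lineages. Lower were the receptors Notch1, Notch2 and Notch3, the targets Hes1, Hes5, Hey1, Hey2 and Nrarp, the glycosyltransferase gene Lfng, the ligand Jag1 and the co-activator Maml2. Higher were the ligands Dll1, at 20.4 and 29.2 against 6.85 and 10.9 CPM (1.51 ± 0.35, adjusted p = 0.0101), and Dll3, at 11.2 and 15.1 against 5.39 and 3.78 CPM (1.54 ± 0.44, adjusted p = 0.0299), with Mfng and Numbl. Notch2, higher in cycling than in non-cycling IPCs, stood at 46.5 and 45.4 against 225 and 199 CPM here (-2.17 ± 0.17, adjusted p = 1.12e-05), below the Slc1a3 class. With DESeq2 6 of the 21 were lower and 1 higher. With the library as a replicate block the calls of Dll3 (edgeR adjusted p = 0.0518) and Hey1 (0.0552) were lost, and those of Numbl, Hey1 and Nrarp were lost under 7, 6 and 5 alternatives in all.

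Of 23 delamination and polarity genes, 7 were higher and 5 lower. Akna, a centrosomal protein known for promoting delamination, stood at 22.3 and 20.2 against 5.39 and 3.31 CPM (2.31 ± 0.39, adjusted p = 0.00174), and Scrt2, a Snail-family repressor, at 55.8 and 55.5 against 5.39 and 6.15 CPM (3.29 ± 0.28, adjusted p = 2.08e-05). Plekha7 stood at 23.2 and 17.1 against 72.9 and 73.7 CPM (-1.81 ± 0.22, adjusted p = 0.000215) and the tight-junction gene Tjp1 at 70.6 and 89.8 against 147 and 155 CPM (-0.88 ± 0.16, adjusted p = 0.00276). Without cells of other lineages 7 were higher and 4 lower, and Cdh11 turned from -1.38 to 0.17.

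Of 25 guidance and signalling receptors, 10 were higher and 2 lower, and 9 and 1 of 24 without cells of other lineages. Dcc, a netrin receptor, stood at 3206 and 3491 against 490.1 and 380.1 CPM (2.98 ± 0.16, adjusted p = 1.16e-06), Epha3 at 928 and 868 against 144 and 149 CPM (2.65 ± 0.15, adjusted p = 1.51e-06) and Sstr2 at 66.9 and 75.6 against 5.39 and 4.25 CPM (3.90 ± 0.28, adjusted p = 7.23e-06). For these 3 genes, which were lower in cycling than in non-cycling IPCs, the members lay between the other classes. Epha4 stood at 441 and 334 against 318 and 275 CPM (0.43 ± 0.17, adjusted p = 0.114) and Nlgn1 at 751 and 863 against 994 and 727 CPM (-0.06 ± 0.17, adjusted p = 0.862). Epha4 passed as higher with the replicate block (edgeR adjusted p = 0.0383).

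Of 14 chromatin genes, 4 were higher and 1 lower, and 3 and 1 without cells of other lineages. Mllt3, a chromatin reader that binds DOT1L, stood at 1306 and 1166 against 392.2 and 391.9 CPM (1.69 ± 0.14, adjusted p = 1.86e-05), and Tet3, Ezh2 and Tet2, whose call was lost under 8 alternatives, were the others. Dnmt3a, a de novo DNA methyltransferase, was lower at 45.5 and 48.4 against 93.5 and 85.6 CPM (-0.89 ± 0.18, adjusted p = 0.0041). Dnmt1 stood at 121 and 142 against 98.9 and 121 CPM (0.30 ± 0.16, adjusted p = 0.235) and Dot1l at 46.5 and 37.3 against 30.8 and 32.1 CPM (0.45 ± 0.22, adjusted p = 0.191), and neither passed.

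Whether the difference with cycling state differed between IPCs and Slc1a3 cells was tested with an interaction term. It added 463 and 499 non-cycling Slc1a3 cells, called cells and not progenitors given their list medians below. Of 13027 genes, 726 passed (5.57%), 506 with a higher (3.88%) and 220 with a lower (1.69%) difference in the IPCs. Of 30 postmitotic neuron genes 18 were higher and 0 lower, of 27 receptors 12 and 1, and of 28 radial glia genes 0 and 5. Pax6 gave -1.40 ± 0.30, adjusted p = 0.0217, from 194 and 135 against 116 and 92.4 CPM in the IPCs and 174 and 138 against 42.3 and 30.3 CPM in the Slc1a3 classes. The non-cycling Slc1a3 class had a neuron list median of 123 and 142 UMIs per 10000 and a radial glia list median of 68.1 and 39.2, against 49.3 and 43.1 and 187 and 186 in the cycling Slc1a3 class, and the part of this mixture in the result was not tested. With at least 5 UMIs of Slc1a3 per cell 182 genes passed.

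Within the members, the 42 and 47 cells on the G2/M side were set against the 4 and 4 on the S side. The S side summed to 64458 and 50266 UMIs, so its CPM values rest on few UMIs of a gene. The sides are ranges of list UMIs and not cell types. Of 5646 genes 75 passed (1.33%), 50 higher (0.886%) and 25 lower (0.443%) on the G2/M side, with the cell-cycle lists left out. The sides were cut by cell-cycle genes of the same cells, so that other mitotic and replication genes among these are a description and no independent result. Prc1, a protein of the central spindle, stood at 568 and 424 against 15.5 and 19.9 CPM, and Mcm3, a subunit of the replicative helicase, at 41.1 and 45.8 against 403 and 398 CPM. Of 24 IPC genes tested, Neurod4, a bHLH factor, was lower at 30.8 and 7.04 against 155 and 139 CPM (-2.87 ± 0.66, adjusted p = 0.0417) and Sox11 higher at 2475 and 2451 against 1381 and 1253 CPM (0.96 ± 0.18, adjusted p = 0.0125), and the call of Neurod4 was lost under 5 alternatives. Sox11 was not followed under the alternatives, and by edgeR without a filter on low counts 0 genes passed. With the S side widened to all members with at least as many S-list as G2/M-list UMIs, an alternative chosen after seeing the data, 208 genes passed, 56 of them among the 75.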

How the data were processed

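Cells of 2 WT libraries (10x Genomics 3' chemistry) were used. The authors counted UMIs per gene and cell with Cell Ranger 7.0.0 on mm10 and deposited the filtered counts without normalization, as whole numbers. Whether intronic reads were counted is not given in the sources used here, and with intronic reads counted, long genes gain UMIs. A cell had at least 500 UMIs as deposited, and median depth was 2967 and 3381.5 UMIs per called cell.

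The classes were cut by raw UMIs, with no clustering. The members and the gene lists were chosen with earlier results of these data known. Microglia were passing cells with at least 5 UMIs of the C1q genes. Doublets were scored against simulated pairs of cells over 30 principal components of 2000 variable genes, the top 11.3% and 10.4% of passing cells were marked, and marked cells were kept in the main analysis.

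UMIs were summed per library and class and tested two-sided with edgeR 4.0.16 (filterByExpr, TMM, glmQLFit and glmQLFTest, R 4.3.3), with Benjamini-Hochberg adjustment over all genes in a fit and a threshold of 0.05. A standard error is the log2 difference divided by the square root of the F statistic. The calculation was tested on simulated data. Alternatives covered DESeq2 1.42.0, no TMM, no filter, a block for the library, and other cell limits. Genes of the lists may be named. Of the others, the 10 highest and 10 lowest that passed, with at least 50 CPM in the higher class and the same direction in both libraries, were named, and 5 each way for the interaction, except for some genes that are not reported here. Both classes of a comparison came from the same libraries, so the replicate number pairs them. The correlation of their library deviations was 0.160, 0.148, 0.0693 and 0.0741 in the comparisons with non-cycling IPCs, with cycling Slc1a3 progenitors, between phase sides and in the interaction. Cells were thinned without replacement, and Python 3.11.15 with numpy 2.4.6 was used for the cell steps.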

Additional observations from a re-analysis of the deposited data

Results flagged for a closer look

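The difference between cycling and non-cycling cells differed between IPCs and Slc1a3 cells for 726 of 13027 genes. The calls were made by the edgeR interaction test at an adjusted p of 0.05. The genes named are among the 5 largest each way with at least 50 CPM in 1 class. Without marked doublets 544 genes passed, 420 of them among the 726, and the calls of all 9 genes named were lost. Of the 9, 7 were also lost within 6000 to 20000 UMIs and 7 with at least 5 Slc1a3 UMIs.

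The 5 with the largest positive interaction included Gm49678 (log2 6.19), Tafa1 (3.70), Lrfn5 (3.66) and Rgs6 (3.48). These 4 stood lower in cycling than in non-cycling Slc1a3 cells in both libraries. In the non-cycling Slc1a3 class the neuron list median was 123 and 142 UMIs per 10000, against 49.3 and 43.1 in the cycling class. The part of this mixture in the 4 values was not tested. Lrfn5, a synaptic adhesion gene, stood at 91.1 and 59.6 CPM in cycling and 396 and 444 CPM in non-cycling Slc1a3 cells. In the IPCs Lrfn5 stood at 103 and 182 CPM in cycling and 85.1 and 43.1 CPM in non-cycling cells. Gm49678 stood at 48.3 and 4.03 CPM in cycling and 0.997 and 4.28 CPM in non-cycling IPCs, so that only WT replicate 1 was high. For Gm49678, Tafa1 and Rgs6 the IPC difference changed sign between the libraries.

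The 5 with the largest negative interaction were Tbx18 (-7.39), Slc22a6 (-6.30), Igfbp7 (-5.09), Rgs5 (-5.03) and Col1a2 (-4.93), genes known from mural cells, fibroblasts and vessels. Tbx18 and Slc22a6 were at 0 in cycling IPCs, where the fitted value is no bound, and Tbx18 stood at 5.98 and 9.21 CPM in non-cycling IPCs. At least 2 UMIs of other lineages were found in 24.3% and 26.2% of cycling and 20.3% and 16.4% of non-cycling Slc1a3 cells. In non-cycling IPCs they were found in 3.09% and 1.51%. With such cells left out of all classes, only 4 of the 9 genes named stayed in the fit, each with the same call. The part of such cells in the values of the 5 genes was not tested.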

How the results depend on the processing

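Depth and class size limit these results. There were 148 members in 2 libraries, 4 and 4 of them on the S side, and members were deeper than the other classes. Cells removed for the 4 excluded genes had a median of 17115 and 16277 UMIs against 13781 and 12460 in the members. All classes came from the same libraries, and no other library was used to check a gene.

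The share of cycling IPCs among passing cells (mean of the libraries 0.905%) was 1.32% with 3000 to 30000 UMIs and under 5% mitochondrial UMIs, 0.817% without marked doublets, 1.17% and 0.740% with at least 1 and 3 Eomes UMIs, 1.43% and 0.630% with at least 1 and 4 UMIs of Mki67 and Top2a, and 1.57% without the limit on the 4 excluded genes, an alternative chosen after seeing the data. Leaving out a library gave 0.889% to 0.921%. Among Eomes cells (17.3%) it was 15.2% without marked doublets, 27.3% and 12.03% with at least 1 and 4 UMIs of Mki67 and Top2a, and 21.6% without the limit on the 4 genes, and leaving out a library gave 16.3% to 18.4%.

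Cycling against non-cycling IPCs gave 776 genes with DESeq2 (73.8% higher, against 62.1% in the main analysis) and 247 without a filter on low counts (89.5% higher). It gave 1971 without marked doublets (57.1% higher) and 1803 within 6000 to 20000 UMIs (59.1% higher). The comparison with cycling Slc1a3 progenitors gave 1409 genes with DESeq2 and 1620 without cells of other lineages. It gave 2176 without marked doublets and 2095 within 6000 to 20000 UMIs, against 2541 in the main analysis. The phase sides gave 41 with DESeq2, 41 with the stricter cell limits, 47 without marked doublets, 49 within 6000 to 20000 UMIs, 208 with the wider S side, and 0 by edgeR without a filter, where 939 of 15341 genes had an unadjusted p under 0.05. The interaction gave 1127 without the limit on the 4 genes, 1131 without cells of other lineages and 182 with at least 5 Slc1a3 UMIs. With the library as a replicate block the counts were 1942, 2645, 90 and 995, each within 1.5 times the main count. Of the single genes followed, the block added 18 calls against non-cycling IPCs and 7 against cycling Slc1a3 progenitors, and ended 0, 2, 3 and 1 calls in the 4 comparisons. The cause of these shifts was not tested. A phase split at 4 times the list UMIs was not run, since it left 0 cells on the S side.

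Among values of single genes under the alternatives, 7 of 3071 against non-cycling IPCs, 13 of 5119 against cycling Slc1a3 progenitors, 1 of 261 between phase sides and 2 of 130 in the interaction turned direction while passing in the main analysis or in the alternative. Against non-cycling IPCs, Prkg1 (0.18), Dlx6os1 (1.00342), Ebf1 (0.19), Cldn5 (0.24), Flt1 (1.36), Hba-a1 (0.48) and Hba-a2 (0.29) turned without the limit on the 4 genes. Against cycling Slc1a3 progenitors, Mef2c (-1.17) turned without marked doublets, Dlx6os1 (4.07), Ebf1 (0.81), Hba-a1 (0.18), Hba-a2 (0.26), Hbb-bs (0.47) and Hbb-bt (0.42) without the limit on the 4 genes, and Ccnd3 (0.015), Cdkn1c (1.38), Cdh11 (0.17), Nr2f2 (0.049), Lef1 (0.053) and Ebf1 (0.84) without cells of other lineages. Csmd1 (-0.34) turned with the wider S side, and Igfbp7 (0.0030) and Col1a2 (0.15) turned in the interaction without the limit on the 4 genes.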

Other observations

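Of the stress and immediate early genes, 0 of 4 tested passed in either direction between the IPC classes by edgeR or DESeq2 (0 at an unadjusted p under 0.05 by edgeR), and their summed level was 1.24 and 1.09 UMIs per 10000 in cycling and 1.19 and 1.11 in non-cycling IPCs. Uhrf1, a partner of DNMT1 at replicated DNA that the S-phase list holds, stood at 79.0 and 94.8 against 7.31 and 2.96 CPM, given as a description.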
